A study of Mus musculus with 6 samples.

Results

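Caspases are the cysteine proteases that carry out apoptosis and inflammatory cell death, and a small set of proteins holds them in check. The 8 genes described here are 4 caspases (Casp8, Casp9, Casp4 and Casp12) and 4 inhibitors (Xiap, Birc2, Birc3 and Cflar), chosen by symbol out of 21124 named genes on a mouse expression array. All 8 were measured. The RNA came from B/CMBA.Ov cells, labelled as ovary cells of the BALB/c strain. The cells had been transfected 48 h earlier with either a synthetic mimic of mmu-miR-15a-3p (3 arrays, called mimic below) or a negative control mimic (3 arrays, control), each at a final concentration of 20 nM. Both groups therefore carry a transfected small RNA, and the comparison asks how the level of each transcript differs between them. One cell line was used, and whether replicates came from separate cultures is not in the labels, so p-values here reflect the variation between these arrays alone, which may be technical.

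Caspases are made as inactive precursors. Initiator caspases are switched on inside large complexes, caspase-8 at death receptors and caspase-9 on the apoptosome that forms when mitochondria release cytochrome c, and they then switch on further caspases that dismantle the cell. Mouse caspase-4, also called caspase-11, senses bacterial lipopolysaccharide inside the cell and opens the membrane pore of pyroptosis, and caspase-12 is its relative at the endoplasmic reticulum. Of the inhibitors, Xiap binds active caspases directly, Birc2 and Birc3 (cIAP1 and cIAP2) are ubiquitin ligases of the tumour necrosis factor receptor complex, and Cflar (c-FLIP) resembles caspase-8 without its protease activity and competes with it at death receptors.

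The small RNA that separates the groups is shown with its seed, bases 2 to 8 from the 5′ end, in capitals, beside the other arm of the same hairpin for contrast. Both are RefSeq sequences of GRCm38.p6, on the minus strand of chromosome 14 at chr14:61632038-61632059 (3p) and chr14:61632075-61632096 (5p).
mmu-miR-15a-3p: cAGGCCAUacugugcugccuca
mmu-miR-15a-5p: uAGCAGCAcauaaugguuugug
The seeds of the arms differ, and of the 1679 mature mouse microRNAs in the RefSeq table used here 1, miR-15a-3p itself, has its seed. Target sites in the transcripts of the 8 genes were not analysed here.

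Values on each array are log2 values as the authors deposited them, and a log2 difference of 1 is a factor of 2. A gene is said to have risen or fallen when its limma p, adjusted by the Benjamini-Hochberg method over all 21124 genes, was under 0.05. By that rule 1286 genes rose and 1190 fell, 11.7% of all genes, and 19.2% of the genes whose mean was no lower than the median gene mean, as all 8 genes described here did. Array medians lay between 6.94 and 7.01. Across clusters, r was 0.993 to 0.996 between arrays of one group and 0.989 to 0.993 between a mimic and a control array. No detection call came with the values, and precision is limited by the 6 arrays. All 8 markers fixed for the ovarian surface epithelium and mesothelium had means no lower than that median, as did 3 of 4 fibroblast markers (Col1a1, Dcn and Pdgfra), against 2 of 7 granulosa, 0 of 4 theca, 0 of 4 endothelial and 1 of 7 leukocyte markers.

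With the miR-15a-3p mimic, Casp4 and Casp12 fell and Xiap rose. These are 3 of the 8 genes, beside 11.7% of all genes. Among genes with a mean no lower than the median gene mean, as all 8 are, the share was 19.2%. The mean of each of the 4 caspases was lower with the mimic and the mean of each of the 4 inhibitors was higher, but Casp8, Casp9, Birc2, Birc3 and Cflar did not pass the test. These 8 genes were chosen with earlier results of these data known. Of the 4 other caspases reported below, 2 had a lower mean with the mimic and 2 a higher one. Among the 7 other genes of the IAP family, that of Xiap and Birc2, 5 had a higher mean and 2 a lower one. Only 2 of these 7 had a mean no lower than the median gene mean. Naip1, Naip5 and Naip6, among the 5, differed by 0.01, 0.02 and 0.05 in log2. Of all 21124 genes, 10983 had a higher mean with the mimic and 10141 a lower one. In 7 of the 8 genes, all but Birc3, the 3 values of one group lay entirely above the 3 of the other. This held for 29.6% of all genes (16.4% with the mimic higher and 13.2% with it lower). That share includes dim genes and was not taken among genes as bright as these 8. The changes were small: ratios of mimic to control ran from 0.749 for Casp4 to 1.23 for Xiap. The median log2 fold change was -0.28 over the 4 caspases and 0.19 over the 4 inhibitors, beside 0.006 over all genes. In bulk RNA, fewer cells that express a gene and less of its RNA per cell cannot be told apart. Some cell type markers moved in the same arrays. Of 8 surface epithelium and mesothelium markers 3 rose and 4 fell. Their log2 fold changes ran from -1.40 (Upk3b) to 0.69 (Krt8), a wider range than the -0.42 to 0.30 of the 8 genes described here. The mean of the list, which averages over both directions, ran from 9.38 to 9.51 on the mimic arrays and from 9.63 to 9.66 on the control arrays. Of 7 granulosa markers 2 fell and 0 rose (0 also at an unadjusted p under 0.05, by which rule 13.0% of all genes were higher and 11.1% lower), with list means from 6.37 to 6.49 and from 6.57 to 6.72. Of 4 endothelial markers 1, Tek, fell and 0 rose, though Kdr was higher at an unadjusted p under 0.05. The mean of that list ran from 6.04 to 6.15 on the mimic arrays and from 6.12 to 6.19 on the control arrays, which overlap. Of 4 fibroblast markers 1 rose and 2 fell, with list means from 9.08 to 9.14 on the mimic arrays and from 9.15 to 9.20 on the control arrays. The part of these cell type markers in the results below was not tested.

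**Figure D1:**
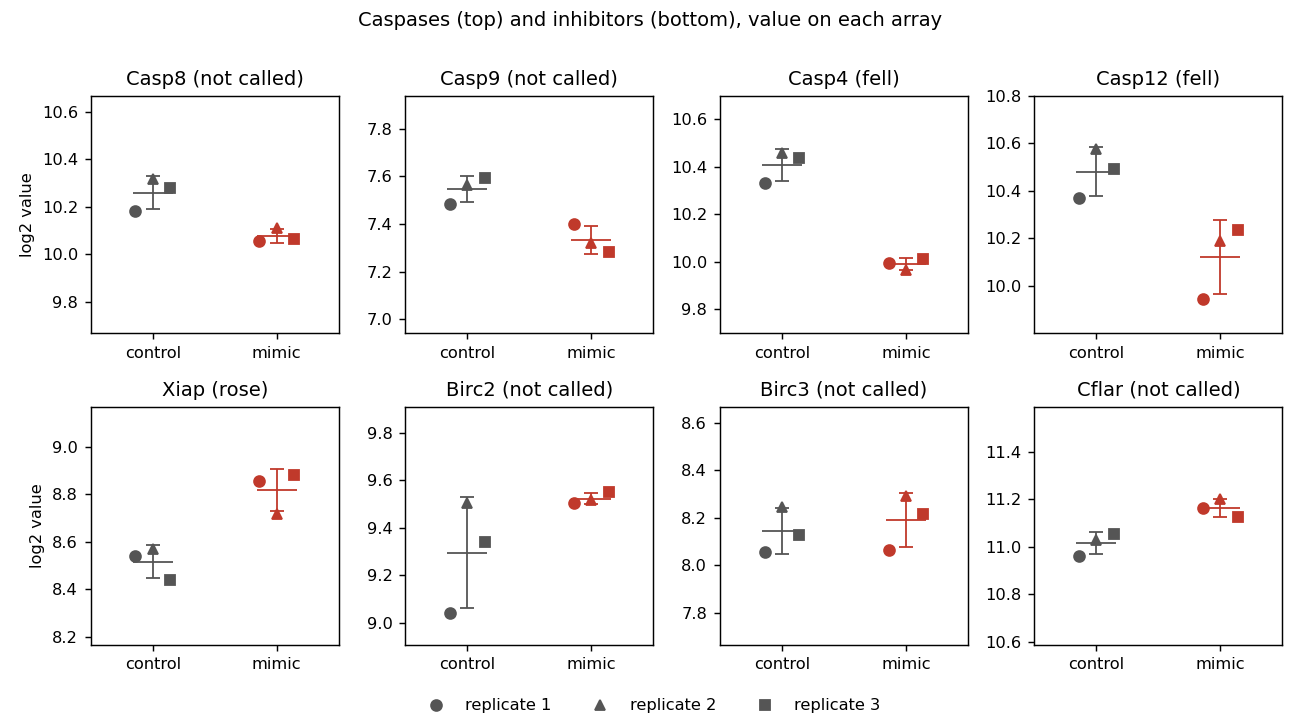
Log2 value of each gene on each array (y axis, spanning 1 log2 unit in every panel) for control (grey) and mimic (red); symbols mark the replicate number, horizontal lines the group mean and bars the SD (n = 3). The groups are apart in every panel but that of Birc3, and in that of Birc2 they are apart by 0.00116.

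**Figure D2:**
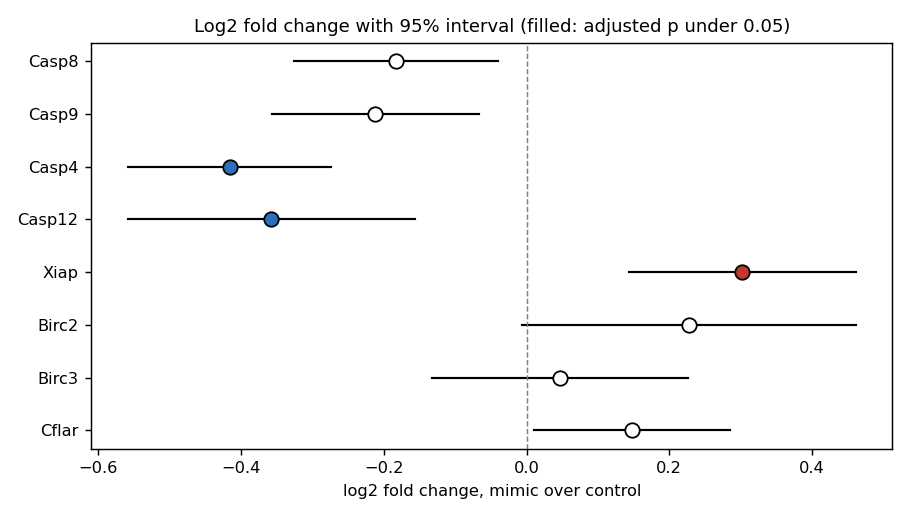
Log2 fold change of mimic over control (x axis) for the 8 genes, with its 95% interval from the limma fit, not adjusted for multiple tests; filled circles passed an adjusted p of 0.05. The 4 caspases lie at or below -0.18 and the 4 inhibitors between 0.05 and 0.30.

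Among the inflammatory caspases, Casp4 fell the furthest of the 8 genes. Its log2 values were 10.33, 10.46 and 10.43 on control arrays 1, 2 and 3 and 9.995, 9.965 and 10.01 on mimic arrays 1, 2 and 3. The lowest control array lay 0.32 above the highest mimic array, and the mimic arrays differed little from each other. The means were 10.41 ± 0.068 with the control and 9.99 ± 0.024 with the mimic (SD, n = 3), so that the log2 fold change was -0.42 ± 0.06 (SE), with a limma adjusted p of 0.0028. The authors' deposited table compares mimic with control over exon-level probe sets, with unadjusted p-values. It comes from arrays of this same experiment, so it is another reading of them and not independent evidence. In it all 9 probe sets named Casp4 had a ratio below 1, from 0.562 to 0.780. Of these 9, 6 had p under 0.05, beside 6.44% of all probe sets in that table being lower by that rule. Casp4 kept its call in all 6 fits that left out 1 array, with an adjusted p of at most 0.0205.

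Casp12 fell by a similar amount with a wider spread. The arrays read 10.37, 10.58 and 10.49 on control arrays 1, 2 and 3 and 9.94, 10.19 and 10.23 on mimic arrays 1, 2 and 3. The groups did not overlap, and mimic replicate 1 stood below the other 2 mimic arrays. The means were 10.48 ± 0.103 and 10.12 ± 0.155 (SD, n = 3), a difference of -0.36 ± 0.09 in log2 (SE; limma adjusted p = 0.031). The authors' deposited table gave each of its 12 probe sets a ratio below 1, from 0.669 to 0.905. Of these, 5 had p under 0.05, beside 6.44% of all probe sets being lower by that rule. The call was lost without mimic replicate 1 (log2 fold change -0.27, adjusted p = 0.079), mimic replicate 2 (0.051), control replicate 2 (0.088) or control replicate 3 (0.11).

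Casp4 and Casp12 are neighbours: in the RefSeq gene order of chromosome 9 the coding genes run Casp1, Casp4, Casp12. Casp1, the protease that matures interleukin-1 beta, is the third gene of this group. Its log2 values, from 4.401 to 4.617 with the mimic and from 4.44 to 4.72 with the control, overlap. The log2 fold change of Casp1 was -0.02 (95% interval -0.22 to 0.18, limma adjusted p = 0.94). With a mean of 4.55, below the median gene mean of 7.27, Casp1 may not be expressed in these cells, so a change could go unseen.

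The initiator caspases had lower means with the mimic but did not pass the test. Casp8 had log2 values of 10.18, 10.32 and 10.28 on the control arrays and 10.05, 10.11 and 10.06 on the mimic arrays. The groups were apart by 0.071. Mimic minus control was -0.18 ± 0.06 in log2 (SE; 95% interval -0.33 to -0.04; limma adjusted p = 0.10). Of 11 Casp8 probe sets in that table of the authors' deposited values, 10 had a ratio below 1, beside 50.7% of all probe sets. Only 1 of the 11 had p under 0.05, beside 6.44% of all being lower by that rule.

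Casp9 had log2 values of 7.48, 7.56 and 7.59 on the control arrays and 7.40, 7.32 and 7.28 on the mimic arrays. Here too the groups did not overlap, with a gap of 0.086. It differed by -0.21 ± 0.06 in log2 (SE; 95% interval -0.36 to -0.07; limma adjusted p = 0.065). The authors' deposited table gave its 11 probe sets unequal ratios. The first 5 in order of probe set ID ran from 0.641 to 1.13 with 3 below 1. The last 6 ran from 0.558 to 0.888, all below 1, with p under 0.05 for 2 of them. Of all probe sets, 6.44% were lower by that rule. A further cluster holds 1 Casp9 probe set beside 7 of Cela2a, the next coding gene, and was not used. That cluster was higher with the mimic by 0.12 in log2, and its Casp9 probe set had a ratio of 1.198 in the authors' deposited table (unadjusted p = 0.38). Casp9 did pass under some other settings, with an adjusted p of 0.031 after quantile normalization, 0.044 among genes with a mean of at least 6 and 0.023 among those no dimmer than the median gene.

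Over the 4 caspases together, 40 of 44 probe sets in the authors' deposited table had a ratio below 1, beside 50.7% of all its probe sets. In the clusters used it was 40 of 43. With p under 0.05, 14 were lower and 0 higher, beside 6.44% and 5.51% of all probe sets. Most of the 14 were of Casp4 (6) and Casp12 (5), with 2 of Casp9 and 1 of Casp8. The contrast variance in that table was 0.833 times its error variance, the factor that 2 against 3 arrays give (3 against 3 give 0.667), so 1 array may not have entered it. Probe sets of 1 gene read the same transcripts on the same arrays and are not independent. None of the 8 genes is in the authors' deposited list of 1768 probe sets that are at least 2-fold lower (0 of 1768, beside 241419 probe sets in the full table). The lowest ratio of any of their probe sets was 0.558, for Casp9, so none met that cut, and the list does not bear on smaller changes.

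**Figure D3:**
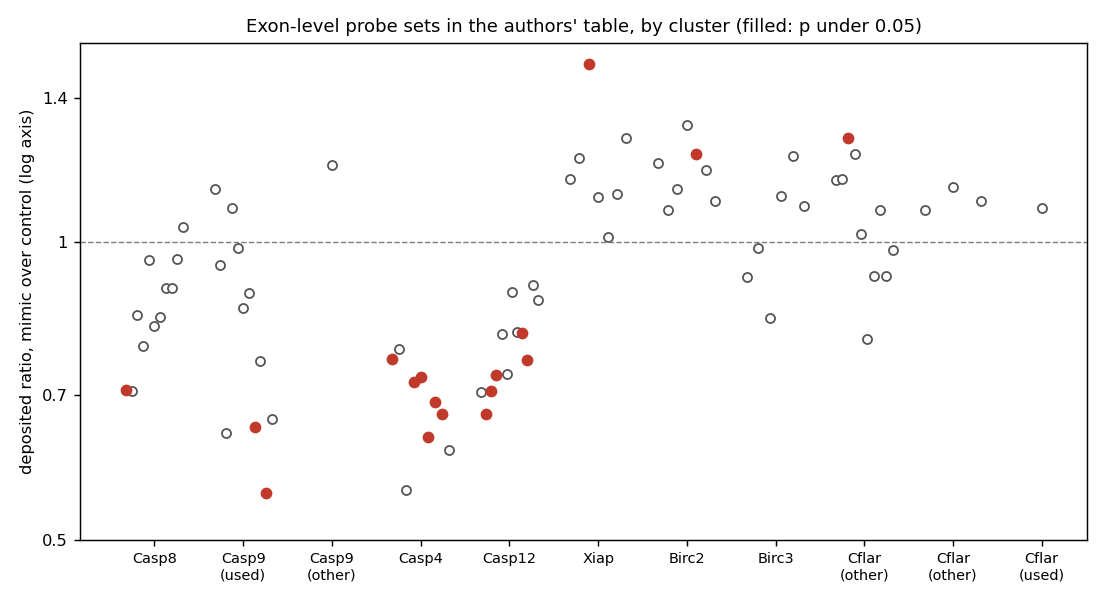
Ratio of mimic to control (y axis, log scale) of each exon-level probe set in the authors' deposited table, grouped by transcript cluster and ordered within it by probe set ID; filled circles had an unadjusted p under 0.05, and "used" marks the cluster whose per-array values were tested where a gene has several. All 9 Casp4 and all 12 Casp12 probe sets lie below 1, and all 7 of Xiap and all 7 of Birc2 above it.

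Among the inhibitors, Xiap rose. On the log2 scale it read 8.54, 8.57 and 8.44 on control arrays 1, 2 and 3 and 8.86, 8.72 and 8.88 on mimic arrays 1, 2 and 3. The lowest mimic array, replicate 2, lay 0.15 above the highest control array. The means were 8.52 ± 0.070 and 8.82 ± 0.088 (SD, n = 3), a difference of 0.30 ± 0.07 in log2 (SE; limma adjusted p = 0.023). The authors' deposited table gave all 7 Xiap probe sets a ratio above 1, from 1.01 to 1.51, against 49.3% of all its probe sets, and 1 had p under 0.05, beside 5.51% of all being higher by that rule. The call was lost without mimic replicate 1 (adjusted p = 0.069), mimic replicate 3 (0.092) or control replicate 3 (0.12).

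Birc2 did not pass the test, and its control arrays disagreed. The log2 values were 9.042, 9.502 and 9.341 on control arrays 1, 2 and 3, and 9.503, 9.516 and 9.549 on the mimic arrays. Control replicate 1 was the low array, and control replicate 2 came within 0.00116 of the lowest mimic array. Its log2 fold change of 0.23 ± 0.10 (SE; 95% interval -0.01 to 0.46; limma adjusted p = 0.22) became 0.10 without control replicate 1. In the authors' deposited table all 7 Birc2 probe sets had a ratio above 1, beside 49.3% of all probe sets. Only 1 of the 7 had p under 0.05, beside 5.51% of all being higher by that rule. A single-probe-set cluster whose symbol RefSeq lists as a synonym of Birc2 showed the same order on the control arrays, 7.14, 7.40 and 7.27, with 7.42, 7.42 and 7.44 on the mimic arrays.

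Birc3, the neighbour of Birc2 on chromosome 9, showed no separation. Its log2 values were 8.06, 8.25 and 8.13 on the control arrays and 8.06, 8.29 and 8.22 on the mimic arrays, which overlap. It had a difference of 0.05 ± 0.08 in log2 (SE; 95% interval -0.13 to 0.23; limma adjusted p = 0.79), and the authors' deposited table listed 3 of 6 Birc3 probe sets with a ratio above 1. Birc2 and Birc3 share synonyms in RefSeq. Clusters were assigned by the deposited accession where RefSeq holds it, and otherwise by symbol or synonym. The single-probe-set cluster assigned to Birc2 by synonym entered only the fit on the mean of a gene's clusters (Birc2 log2 fold change 0.19).

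Cflar, the neighbour of Casp8 on chromosome 1, had slightly higher means with the mimic in each of its 3 clusters. The brightest, read by 1 probe set, gave log2 values of 10.96, 11.03 and 11.05 on the control arrays and 11.16, 11.20 and 11.13 on the mimic arrays. The groups were apart by 0.074, with a difference of 0.15 ± 0.06 in log2 (SE; 95% interval 0.01 to 0.29; limma adjusted p = 0.17). The cluster with 10 probe sets differed by 0.15 between group means, and its arrays overlapped between the groups: 9.23, 9.33 and 9.36 with the control and 9.56, 9.33 and 9.49 with the mimic. When it stood for Cflar, the adjusted p was 0.27. Within that cluster the authors' deposited ratios ran in both directions. The first 5 probe sets by ID were all above 1 (1.02 to 1.28), and 4 of the last 5 were below 1 (0.798 to 1.08 over the 5). The third cluster, with 3 probe sets, differed by 0.22 between group means. Its ID lies far from those of the other Cflar clusters and of Casp8, and where it maps was not analysed here. Cflar is transcribed in long and short forms, which these values do not separate.

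**Figure D4:**
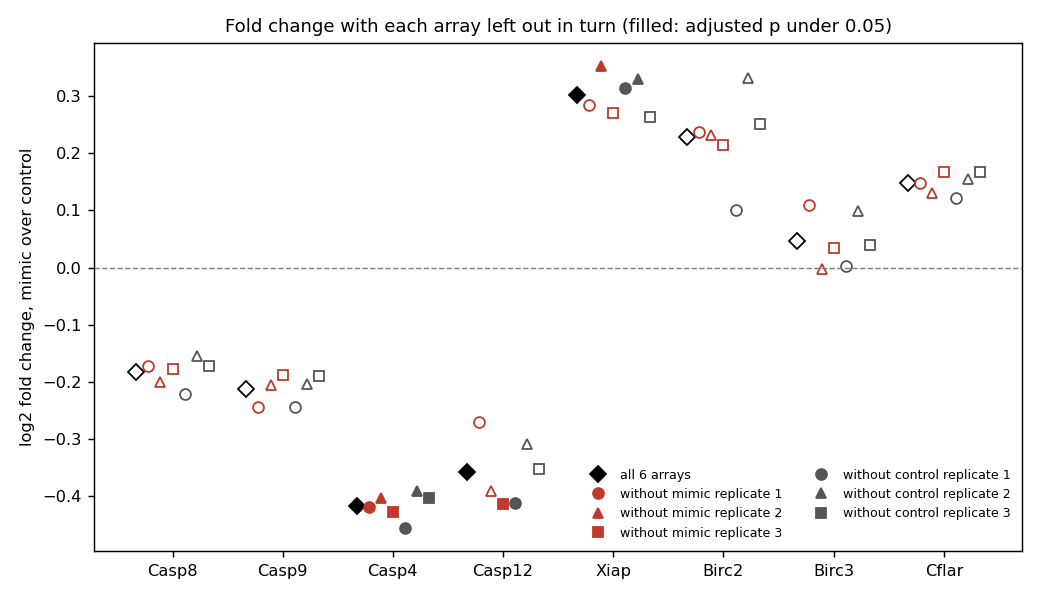
Log2 fold change of mimic over control (y axis) for each gene with all 6 arrays (diamond) and with each array left out in turn (colour for the group and shape for the replicate left out); filled symbols passed an adjusted p of 0.05. Casp4 is filled throughout, Casp12 in 2 and Xiap in 3 of the 6 fits with an array left out, and Birc3 lies on both sides of 0.

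The promoters of the 3 genes that passed the test are shown because Casp4 and Casp12, which lie side by side, fell together while Xiap rose. Each is 250 bases before to 50 after a RefSeq start in GRCm38.p6, 5′ to 3′ on the plus strand, which is the strand of all 3 genes. Casp4 is at chr9:5308599-5308898, Casp12 at chr9:5345226-5345525 and Xiap, at 1 of its 3 starts in the table, at chrX:42068148-42068447. Capitals mark matches, on either strand, to 3 motifs: GAAANNGAAA (core of the interferon-stimulated response element), TTCNNNGAA (STAT dimer site) and GGGANNNNCC (a loose NF-kappaB site).
Casp4: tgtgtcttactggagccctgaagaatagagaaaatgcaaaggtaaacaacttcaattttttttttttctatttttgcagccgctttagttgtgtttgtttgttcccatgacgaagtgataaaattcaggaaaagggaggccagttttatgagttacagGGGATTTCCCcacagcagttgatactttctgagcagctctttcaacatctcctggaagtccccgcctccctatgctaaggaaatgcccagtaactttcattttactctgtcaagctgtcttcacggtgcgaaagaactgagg
Casp12: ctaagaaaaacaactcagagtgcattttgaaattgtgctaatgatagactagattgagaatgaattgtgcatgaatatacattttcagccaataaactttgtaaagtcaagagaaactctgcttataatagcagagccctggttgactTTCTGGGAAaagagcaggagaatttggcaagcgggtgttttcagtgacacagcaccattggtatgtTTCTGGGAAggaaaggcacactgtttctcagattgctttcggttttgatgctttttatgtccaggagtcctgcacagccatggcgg
Xiap: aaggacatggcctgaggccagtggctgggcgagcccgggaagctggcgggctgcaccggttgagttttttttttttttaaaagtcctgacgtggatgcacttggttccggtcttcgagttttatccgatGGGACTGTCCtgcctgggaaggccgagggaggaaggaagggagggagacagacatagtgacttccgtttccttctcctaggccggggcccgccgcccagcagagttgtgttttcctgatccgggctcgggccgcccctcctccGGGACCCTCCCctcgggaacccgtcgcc
The Casp4 window holds 1 NF-kappaB match, GGGATTTCCC, which reads as a match on both strands. The Casp12 window holds 2 STAT dimer matches, both TTCTGGGAA and both read on either strand. The Xiap window holds 3 NF-kappaB matches, 2 of which overlap, and neither of the other 2 Xiap windows holds any. Of 32851 promoter windows in the table, 3.44% hold the interferon core, 8.30% the STAT motif and 20.7% the NF-kappaB motif. RefSeq windows were found for all 8 genes. The Cflar window holds 1 interferon core match and the Birc3 window 1 NF-kappaB match, while those of Birc2, Casp8 and Casp9 hold no match. A match describes the letters in the window and is no evidence that a factor binds there.

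Of 55 other genes of the caspase pathway reported here, grouped by role, 0 rose and 7 fell by limma, beside 6.09% and 5.63% of all genes. At an unadjusted p under 0.05, 4 were higher and 17 lower, beside 13.0% and 11.1% of all genes. With another variance model, or among genes no dimmer than the median gene, 2 (Birc6 and Rock1) and 1 (Rock1) of them rose. With the mean of a gene's clusters, 1 (Gsdme) rose. Septin4, on the list, was not analysed here. Of the 55, 34 had a mean no lower than that of the median gene, and in the dimmer ones a change may go unseen. The median log2 fold change of the 55 genes was -0.01. With 1 array left out, the number that fell ran from 3 (without control replicate 3) to 8 (without mimic replicate 1), and it was 4 without control replicate 2 or without either of mimic replicates 2 and 3.

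Of the 4 other caspases reported here, 0 were called by limma (1 was lower and 0 were higher at an unadjusted p under 0.05). Only 2 of the 4 had a mean no lower than that of the median gene. Casp2, an initiator activated by the PIDDosome, had a log2 fold change of 0.11 (95% interval -0.06 to 0.27; limma adjusted p = 0.45). Casp6, which cuts nuclear lamins, had 0.03 (-0.14 to 0.21; 0.85), and Casp14, a caspase of the skin, had -0.20 (-0.36 to -0.04; 0.12). Casp1 is given above.

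Among antagonists of the IAP proteins, Xaf1, a binding partner of Xiap known as an interferon-induced gene, fell. It read 9.68, 9.77 and 9.67 on the control arrays and 9.13, 9.12 and 9.14 on the mimic arrays, 0.52 apart. Its fold change of -0.57 ± 0.06 in log2 (SE; limma adjusted p = 0.00042) was opposite in sign to that of Xiap. The call held in all 6 fits that left out 1 array. Diablo and Htra2, mitochondrial proteins that release caspases from IAPs, had log2 fold changes of 0.02 and -0.19 (adjusted p = 0.93 and 0.10), and Siva1 had -0.20 (0.20). Htra2 fell under 3 of 14 other settings and Siva1 under 1, without mimic replicate 1.

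None of the 7 other IAP family members was called by limma (0 of 7, with 1 higher and 1 lower at an unadjusted p under 0.05). Only 2 of the 7 had a mean no lower than that of the median gene. Birc5 (survivin), which acts in cell division, had a log2 fold change of -0.26 (adjusted p = 0.061), and Birc6, a very large ubiquitin ligase that inhibits caspases, had 0.17 (0.15). Birc5 fell under 6 of 14 other settings, quantile normalization, median centring and the leaving out of mimic replicate 1 among them (lowest adjusted p = 0.019), and Birc6 rose under 1 (0.047). The Naip genes have near-identical copies, so a probe set of one may also pick up another.

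Upstream of caspase-8, 0 of 7 death receptors and ligands were called by limma (2 lower and 0 higher at an unadjusted p under 0.05). Of these 7, 4 had a mean no lower than that of the median gene. Tnfrsf10b, the mouse TRAIL receptor, had a log2 fold change of -0.28 (adjusted p = 0.064), and Fas had -0.01 (95% interval -0.14 to 0.12). Tnfrsf10b fell under 5 of 14 other settings, without control replicate 1 and after quantile normalization among them (lowest adjusted p = 0.020). Of 11 adaptors and kinases, 1 fell and 0 rose, beside 5.63% and 6.09% of all genes. The 1 that fell was Ripk1, the kinase that Birc2 and Birc3 mark with ubiquitin. Its log2 values were 9.30, 9.48 and 9.35 on the control arrays and 8.998, 9.079 and 9.070 on the mimic arrays. It differed by -0.33 ± 0.07 in log2 (SE; limma adjusted p = 0.014), and the call was lost without control replicate 3 (adjusted p = 0.054). Fadd, the adaptor that recruits caspase-8, had a log2 fold change of -0.14 (adjusted p = 0.19). Upstream of caspase-9, neither Apaf1 (0.21; adjusted p = 0.14) nor Cycs (0.10; 0.41) was called by limma, 0 of 2, with Apaf1 higher at an unadjusted p under 0.05.

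Of 13 genes of the inflammasome, pyroptosis and necroptosis, 3 fell and 0 rose, beside 5.63% and 6.09% of all genes. At an unadjusted p under 0.05, 4 were lower and 0 higher, beside 11.1% and 13.0% of all genes. Mlkl, with a log2 fold change of -0.21 (limma adjusted p = 0.12), fell only after quantile normalization (adjusted p = 0.032). Only 5 of the 13 had a mean no lower than that of the median gene. Gsdme, with a log2 fold change of 0.05 (limma adjusted p = 0.79), rose when the mean of its clusters was used (adjusted p = 0.0068). Il18, a cytokine that caspase-1 matures, had log2 values of 9.95, 10.10 and 10.05 on the control arrays and 9.09, 9.22 and 9.31 on the mimic arrays. The difference was -0.83 ± 0.08 in log2 (SE; limma adjusted p = 0.00022), and it kept its call in all 6 fits that left out 1 array. Gbp2, an interferon-induced GTPase of a family that aids caspase-4 in sensing lipopolysaccharide, had a log2 fold change of -0.37 (adjusted p = 0.019). Zbp1, a nucleic acid sensor of necroptosis, had -0.36 (0.045). Both calls were lost in most fits with an array left out, Gbp2 without mimic replicate 2 or 3 or control replicate 2 or 3 and Zbp1 without any array but mimic replicate 1. Gsdmd, the pore protein that caspase-4 cuts, had 0.09 (95% interval -0.08 to 0.25; adjusted p = 0.54). Of 7 leukocyte markers, 0 were called by limma (0 at an unadjusted p under 0.05), but only 1 of them, Cd68, had a mean no lower than that of the median gene, and Ptprc, Adgre1 and Itgam had means of 5.37, 5.07 and 5.16. The mean of the list ran from 6.05 to 6.12 on the mimic arrays and from 6.02 to 6.11 on the control arrays.

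Of 7 genes whose proteins caspases cut or that act on caspase-cut DNA, 2 fell (Lmnb1 and Acin1) and 0 rose. The shares of all genes were 5.63% and 6.09%. At an unadjusted p under 0.05, 2 were lower and 2 higher. Lmnb1, lamin B1 of the nuclear envelope, changed by -0.38 ± 0.06 in log2 (SE; limma adjusted p = 0.0044). Acin1, which acts in chromatin condensation and splicing, had -0.23 (0.031), a call lost in each of the 6 fits with 1 array left out (adjusted p from 0.057 to 0.11). Bid and Rock1 had 0.24 and 0.19 (adjusted p = 0.12 and 0.099), and Parp1 had -0.03 (0.86). The array measures RNA, so no value here speaks of cleavage or activity of any caspase.

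**Figure D5:**
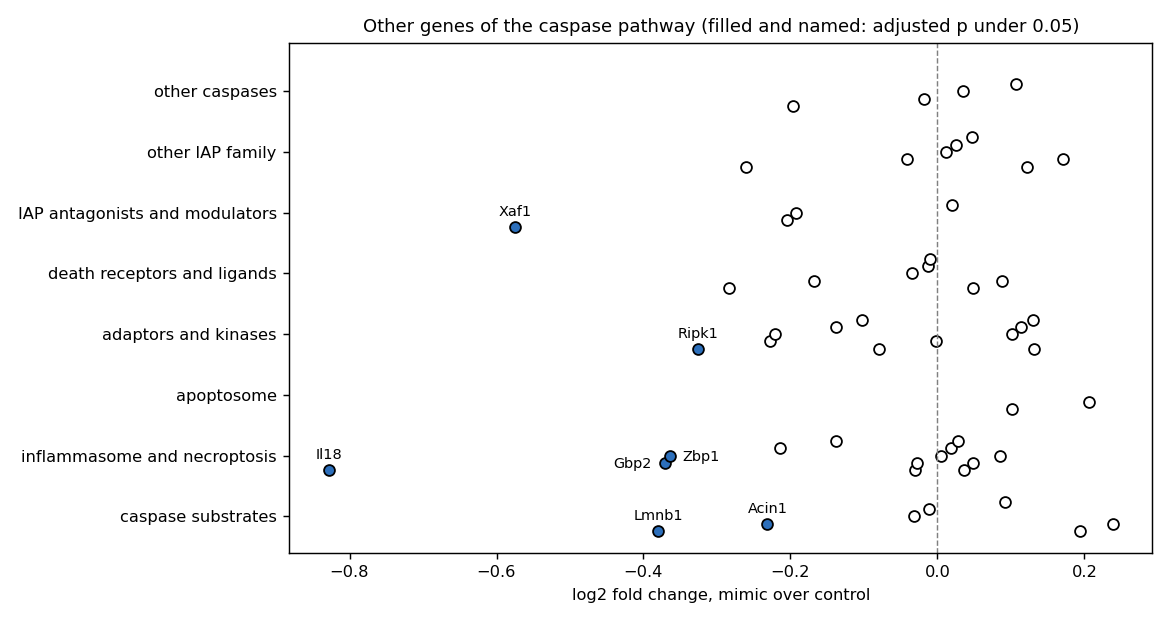
Log2 fold change of mimic over control (x axis) for 55 further genes of the caspase pathway, by list (y axis; vertical offsets within a list only separate the points); filled circles, with their symbols, passed an adjusted p of 0.05. All 7 filled points lie to the left of 0, and Il18, at -0.83, lies furthest to the left.

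The patterns of the 3 called genes over the 6 arrays were shared by many others. Among 14793 named genes read by at least 4 probe sets, those most like Casp4 by Pearson's r over the 6 arrays were Efna5 (0.999), Fzd6 (0.999) and Nsdhl (0.999). For Casp12 they were Washc3 (0.997), Stk3 (0.997) and Rorb (0.994), with log2 fold changes of -0.13, -0.14 and -0.49 (limma adjusted p = 0.25, 0.22 and 0.013), and for Xiap Fnip2 (0.998), Mcpt4 (0.994) and Zbtb43 (0.994). Those most like Casp4 had log2 fold changes of -0.36, -0.29 and -0.59, and those most like Xiap 0.49, 0.34 and 0.36. An r over 0.95 was reached with 667 genes for Casp4, 123 for Casp12 and 140 for Xiap. Over 6 arrays, an r picked as the highest of so many genes can largely restate the group difference, so it is a description only.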

How the data were processed

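RNA from 3 mimic and 3 control arrays was compared, with groups and replicate numbers from the sample titles. The authors deposited log2 values of 35556 transcript clusters, whose scale was read from their range (2.73 to 13.91). The authors' deposited table gives, per the file headers, a p-value with no adjustment, a ratio of mimic to control and a score (a signed fold change) for 241419 exon-level probe sets. Partek, RMA, Affymetrix Expression Console and MAS5 are named in the submitters' processing notes, and versions and build are not given in the sources used here. Clusters were named from probe sets whose IDs lie between a cluster's ID and the next, with symbols updated through RefSeq (24115 clusters with 1 symbol, 834 with several, 10607 with none). Of a gene's clusters the one with the highest mean was used. The log2 fold changes of both tables correlated across 16585 clusters with r = 0.928.

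Linear models (limma 3.58.1 in R 4.3.3, functions lmFit and eBayes) with no filter and no block gave two-sided p-values, adjusted over 21124 genes, and the code was tested on simulated data. Members, pathway lists, motifs and alternatives were chosen with earlier results of these data known. Named were the members, the pathway genes past the threshold, those that spell out a small count, and the 3 genes most like each called member. Some listed genes are not reported here, and the pathway counts leave them out. Further pathway and marker genes were named after their values were seen. Same-numbered arrays did not deviate together (r of deviations 0.057, -0.15 and -0.004), so replicate numbers were not taken as pairs.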

Additional observations from a re-analysis of the deposited data

How the results depend on the processing

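Casp4 kept its call under each of the 14 alternatives. Birc2 and Birc3 passed under none of them, though Birc3 changed sign without mimic replicate 2 (log2 fold change -0.00302; with 1 array left out it ran from -0.00302 to 0.11). With 1 array left out in turn, the log2 fold change ran from -0.41 to -0.27 for Casp12 and from 0.26 to 0.35 for Xiap, the risen and fallen members ran from 0 to 1 and from 1 to 2, fallen pathway genes from 3 to 8 with 0 risen, and all risen and fallen genes from 676 to 1115 and from 604 to 1119 (676 and 604 without control replicate 3, 791 and 756 without mimic replicate 3, 820 risen without mimic replicate 1 and 777 fallen without mimic replicate 2). No replicate pairing was found, and with the replicate number as a block Xiap did not pass (log2 fold change 0.30, adjusted p = 0.063), which left 0 risen members and 4 fallen pathway genes. Restricting the test to genes no dimmer than the median gene gave 4 fallen members, as Casp8 (-0.18, adjusted p = 0.039) and Casp9 (-0.21, 0.023) passed among fewer genes, and 1 risen pathway gene. With a mean of at least 6, Casp9 passed (-0.21). Quantile normalization passed Casp9 (-0.22) and gave 11 fallen pathway genes. With a variance trend and robust estimation, Casp8 (-0.18, 0.036) and Cflar (0.15, 0.035) passed, for 2 risen members and 2 risen pathway genes. The mean of a gene's clusters gave 1 risen pathway gene, Gsdme. Median centring shifted every log2 fold change by -0.01 and gave 1181 risen and 1281 fallen genes. Causes beyond the number of genes or arrays in a fit were not tested. Using the cluster with the most probe sets, chosen after seeing the data, changed no call of a member.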
